A study of Mus musculus with 12 samples.

Results

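Aminoacyl-tRNA synthetases, the enzymes that load each amino acid onto its tRNA, were examined in brown adipose tissue of mice lacking the estrogen-related receptors ERRα and ERRγ in adipocytes and of mice given a β3-adrenergic agonist. A list of 36 synthetase genes was taken by symbol from the 24452 genes of the deposited table: 16 with symbols ending in 2, called mitochondrial here, and 20 cytosolic or shared ones. All 36 had a mean of at least 0.5 RPKM over the 12 libraries, the minimum for testing, as did 12249 genes in all. RPKM corrects a read number for gene length and sequencing depth, so levels of different genes can be set side by side.

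RNA was sequenced from 4 groups of 3 libraries each. ERRKO_CL and ERRKO_PBS mice carried floxed ERRα and ERRγ alleles and a Cre transgene driven by the adiponectin promoter, which is active in fat cells, so other cells of the tissue keep both genes. WT_CL and WT_PBS mice were floxed littermates without Cre, so all 4 groups carried the floxed alleles. All were male C57BL/6J Bom mice, kept at 30 °C and 10 to 11 weeks old when injections began (12 weeks is the age on the labels). The CL groups had an intraperitoneal dose of the agonist CL316,243 at 1 mg/kg, given daily at ZT 4 (hours after lights on) over 10 days; the PBS groups had the same volume of PBS. Tissue was taken 24 hours after the last dose. The labels do not say whether each library is a separate animal, and p-values here therefore cover no more than the variation among the libraries at hand.

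Translation runs in 2 compartments of the cell, each with its own tRNAs. The cytosol serves nuclear mRNAs, whereas mitochondria translate the few mRNAs of their own genome, which encode subunits of the respiratory chain and ATP synthase. Mitochondrial synthetases are encoded in the nucleus and imported. Most amino acids have a separate synthetase gene for each compartment, but Gars (glycine) and Kars (lysine) each give both a cytosolic and a mitochondrial enzyme. Mitochondrial glutaminyl-tRNA has no synthetase of its own: Ears2 loads glutamate, which an amidotransferase converts. ERRα and ERRγ are nuclear receptors known for driving genes of mitochondrial energy metabolism, and brown fat, a heat-producing tissue, is rich in mitochondria.

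Promoter sequence is shown for the shared pair Gars and Kars, which behaved differently below, and for 2 cytosolic and 2 mitochondrial genes with a match to one of the motifs searched. Each stretch runs from 150 bases before to 5 bases after the RefSeq transcription start (GRCm38.p6), 5′ to 3′ on the gene's own strand, with capitals marking motif matches on either strand.
Gars, chr6:55037851-55038005, plus strand: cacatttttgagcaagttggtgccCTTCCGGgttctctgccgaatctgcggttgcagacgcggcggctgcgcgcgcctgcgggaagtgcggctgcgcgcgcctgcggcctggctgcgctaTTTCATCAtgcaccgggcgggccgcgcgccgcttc
Kars, chr8:112011350-112011504, minus strand: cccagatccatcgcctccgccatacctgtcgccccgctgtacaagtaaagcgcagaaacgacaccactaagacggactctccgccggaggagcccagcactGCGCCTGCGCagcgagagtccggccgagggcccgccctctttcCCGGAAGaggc
Aars, chr8:111033692-111033846, plus strand: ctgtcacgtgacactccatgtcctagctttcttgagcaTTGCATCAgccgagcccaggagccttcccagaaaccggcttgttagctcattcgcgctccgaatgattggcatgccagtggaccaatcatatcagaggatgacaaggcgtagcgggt
Tars, chr15:11399654-11399808, minus strand: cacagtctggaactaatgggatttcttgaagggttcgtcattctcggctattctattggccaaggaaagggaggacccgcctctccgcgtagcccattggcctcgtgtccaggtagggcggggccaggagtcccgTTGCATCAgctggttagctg
Cars2, chr8:11550767-11550921, minus strand: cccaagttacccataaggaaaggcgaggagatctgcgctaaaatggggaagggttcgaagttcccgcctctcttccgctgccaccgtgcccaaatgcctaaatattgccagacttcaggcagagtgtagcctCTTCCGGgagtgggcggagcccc
Rars2, chr4:34614807-34614961, plus strand: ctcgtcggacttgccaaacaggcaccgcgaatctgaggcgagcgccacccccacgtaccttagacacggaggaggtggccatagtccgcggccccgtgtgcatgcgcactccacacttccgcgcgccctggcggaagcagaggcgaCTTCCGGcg

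In these stretches the capitals mark TGATGNAA, the core to which the amino acid response factor ATF4 binds, in Gars, Aars and Tars, CCGGAAG, an Ets-type site known from the factor GABP, in Gars, Kars, Cars2 and Rars2, and GCGC, any base and TGCGC in a row, the site of the respiratory factor NRF1, in Kars. No match overlapped one to another motif in the stretches shown. RefSeq windows of 300 bases (250 before and 50 after the start) were at hand for 14 mitochondrial genes and 12 cytosolic or shared genes. TGATGNAA occurred in 5 cytosolic or shared genes (Aars, Gars, Iars, Tars and Yars) and in 0 mitochondrial genes, against 3.97% of all 32851 windows. CCGGAAG occurred in 4 mitochondrial genes (Cars2, Mars2, Rars2 and Sars2) and in 4 cytosolic or shared ones (Farsa, Gars, Kars and Sars), against 8.86% of all windows. The NRF1 site occurred in 2 mitochondrial genes (Iars2 and Mars2) and 3 cytosolic or shared ones (Farsb, Kars and Tars), against 4.60% of all windows. The ERR response element TNAAGGTCA was in none of these windows, against 1.28% of all, and the shorter nuclear receptor site AAGGTCA, which lies within it, was in none either, against 4.72% of all.

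The genotype labels were checked first. Esrra, which encodes ERRα, had 8.37, 6.69 and 8.70 scaled RPKM in ERRKO_CL libraries and 8.71, 5.25 and 8.89 in ERRKO_PBS libraries, against 83.1, 75.4 and 78.9 in WT_CL and 46.9, 41.6 and 42.3 in WT_PBS libraries. Esrrg averaged 7.02 ± 0.950 in ERRKO_CL and 3.54 ± 1.21 in ERRKO_PBS libraries, against 6.90 ± 1.26 in WT_CL and 6.87 ± 2.15 in WT_PBS libraries; the labels do not say which exons were removed, so a whole-gene value does not check that deletion. Ucp1, the heat-producing uncoupler that defines brown fat, had 27.8, 27.6 and 54.4 in ERRKO_CL and 3.26, 3.95 and 6.37 in ERRKO_PBS libraries, against 2963, 1836 and 2250.4 in WT_CL and 484, 315 and 538 in WT_PBS libraries. Reads recovered per library ranged from 12468001 to 13263567 in ERRKO and from 8478310 to 9727167 in WT libraries. On the deposited RPKM the median of all tested genes was shifted between groups, on the log2 scale: ERRKO_PBS lay 0.53 above WT_PBS and ERRKO_CL 0.63 above WT_CL, while the change was -0.26 in WT_CL against WT_PBS and -0.16 in ERRKO_CL against ERRKO_PBS. Values were therefore divided by median-of-ratios factors (scaled RPKM), and changes below are log2 differences of scaled RPKM + 0.5, that is, relative to that common shift. Summed RPKM of 14 skeletal muscle markers was highest in ERRKO_PBS replicate 3 (3605) and ERRKO_CL replicate 3 (1938), against 36.9 to 892 in the other 10 libraries, and Ckm, the muscle creatine kinase, had 23.3, 87.1 and 212 in ERRKO_CL, 47.0, 11.1 and 389 in ERRKO_PBS, 10.1, 0 and 49.0 in WT_CL and 37.9, 0.0517 and 0.804 in WT_PBS libraries.

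The balance between the 2 sets of synthetases can be read without any scaling between libraries, as the mitochondrial share of the summed RPKM of the 36 genes. It was 28.7%, 30.1% and 28.8% in ERRKO_CL, 25.6%, 27.8% and 25.7% in ERRKO_PBS, 40.1%, 41.5% and 40.9% in WT_CL and 28.4%, 28.4% and 30.1% in WT_PBS libraries. The WT_CL libraries stood above all others by about 10 percentage points, and the ERRKO_CL libraries lay close to the WT_PBS libraries. The sum of the 16 mitochondrial genes was 133 ± 3.32 scaled RPKM in ERRKO_CL, 112 ± 5.81 in ERRKO_PBS, 244 ± 7.18 in WT_CL and 141 ± 14.1 in WT_PBS libraries (SD, n = 3). The sum of the 20 cytosolic or shared genes was 321 ± 5.90 in ERRKO_CL, 314 ± 7.67 in ERRKO_PBS, 354 ± 6.996 in WT_CL and 346 ± 17.8 in WT_PBS libraries, a much narrower range.

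**Figure D1:**
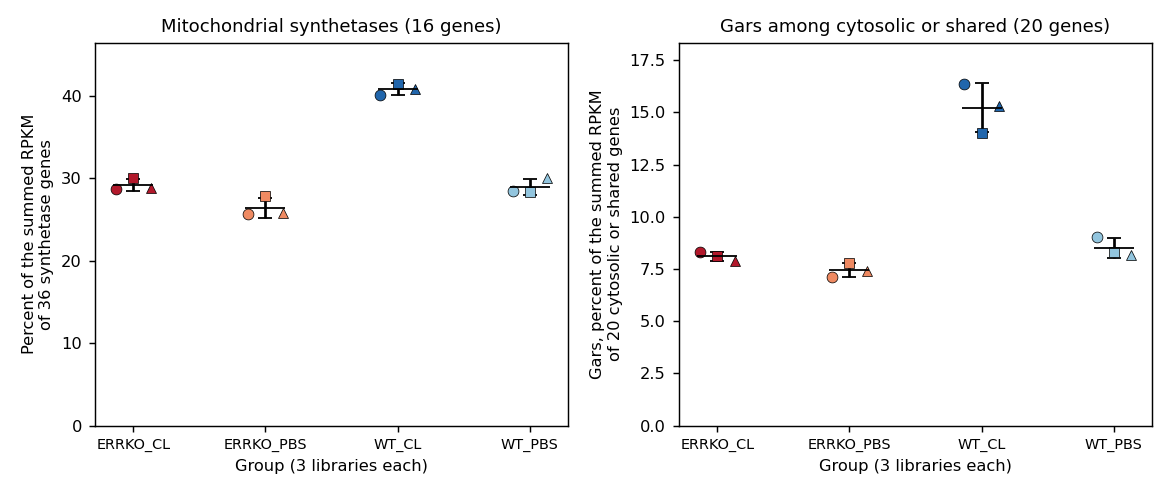
Left, the 16 mitochondrial genes as a percent of the summed RPKM of 36 synthetase genes; right, Gars as a percent of the summed RPKM of the 20 cytosolic or shared genes. Points are libraries, bars the mean ± SD (n = 3), and in both panels the 3 WT_CL libraries sit above the other 9.

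Levels differed widely within each set. Over the 12 libraries the mitochondrial genes averaged from 1.34 scaled RPKM for Ears2 (glutamate) to 43.8 for Iars2 (isoleucine), with a median of 6.91 and with 4 genes (Ears2, Mars2, Pars2 and Wars2) under 2. The cytosolic or shared genes averaged from 5.19 for Cars (cysteine) to 33.1 for Gars, with a median of 14.7. Recovered reads per library behind these levels ran from 55 to 3099 for mitochondrial and from 180 to 2647 for cytosolic or shared genes, so the lowest mitochondrial genes are measured least precisely. Some members share exon bases with other genes, among them Iars2 (24.2%), Aars (15.1%), Fars2 (10.7%), Farsb (9.47%) and Vars2 (8.52%). Whether counting used strand is not stated, so these levels are less certain.

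In WT mice the agonist was followed by higher RNA of 13 of the 16 mitochondrial synthetases, and by little movement of the cytosolic ones. Iars2, Fars2 (phenylalanine), Aars2 (alanine), Cars2 (cysteine) and Sars2 (serine) each had a log2 change between 0.88 and 1.02. Outside the mitochondrial set, Gars rose and Kars fell. Among all tested genes 18% were called higher and 12.6% lower in this comparison (adjusted p under 0.05 by limma with Benjamini-Hochberg adjustment over 12249 genes).

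Iars2 had 62.1, 69.4 and 65.5 scaled RPKM in WT_CL libraries, against 31.9, 30.2 and 34.4 in WT_PBS libraries, a log2 change of 1.02 ± 0.09 (SE, limma adjusted p = 1.32e-05). A part of its exon bases, 24.2%, overlaps 2010103J01Rik and Rab3gap2, and whether counting used strand is not stated, so its level is uncertain. Aars2 had 12.0, 12.0 and 11.6 in WT_CL, against 6.67, 5.59 and 6.50 in WT_PBS libraries, a change of 0.88 ± 0.08 (limma adjusted p = 2.67e-05). Lars2, which loads leucine, had 13.6, 15.6 and 14.3 in WT_CL, against 8.42, 7.16 and 8.41 in WT_PBS libraries, a change of 0.82 ± 0.10 (limma adjusted p = 1.59e-04). For each of these genes the 3 WT_CL libraries lay above the 3 WT_PBS libraries with a wide gap. Sars2 had 9.24, 8.44 and 8.34 in WT_CL, against 4.53, 4.02 and 4.99 in WT_PBS libraries, a change of 0.88 ± 0.12 (limma adjusted p = 2.31e-04). Of the other mitochondrial members, Cars2, Fars2, Yars2 (tyrosine), Vars2 (valine), Wars2 (tryptophan), Tars2 (threonine), Hars2 (histidine), Rars2 (arginine) and Nars2 (asparagine) rose by 0.88, 0.90, 0.82, 0.65, 0.54, 0.51, 0.47, 0.42 and 0.34 on the log2 scale. The Nars2 call had an adjusted p of 0.0263 and was lost without WT_PBS replicate 1 or 2 or WT_CL replicate 2 or 3. Ears2, Mars2 (methionine) and Pars2 (proline), 3 of the 4 least abundant mitochondrial members, had changes of 0.24, 0.08 and -0.08 and did not pass the test.

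The mitochondrial set had a median change of 0.59, against 0.01 over all tested genes, and the libraries of the 2 groups did not overlap for the same 13 genes (24% of all tested genes were higher without overlap). On the deposited scale 8 of the 16 genes were called higher, 0 lower, and the set's median was 0.31, where the median of all genes was -0.26 and 7.2% of all genes were called higher and 38.1% lower. In bulk tissue a change in the number of fat cells and a change in RNA per cell cannot be told apart. Some brown adipocyte markers moved with these genes: the summed RPKM of 8 markers ran from 7685 to 9657 in WT_CL and from 3945 to 5901 in WT_PBS libraries, with 4 of 8 called higher and 0 lower (Fabp3 had -1.17 and did not pass); only Elovl3 was at 0, in WT_PBS replicate 1. The 6 macrophage markers all fell, with sums of 112 to 147 in WT_CL and 199 to 406 in WT_PBS libraries, and so did the 3 erythroid markers, with sums of 122 to 387 in WT_CL and 539 to 586 in WT_PBS libraries. Their part in these values was not tested.

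Of the 20 cytosolic or shared genes, 18 did not pass the test in WT_CL against WT_PBS. Their median change was -0.06, and the median of the mitochondrial set lay 0.65 above it on the scaled and 0.68 above it on the deposited values. Gars had 58.9, 49.8 and 52.9 scaled RPKM in WT_CL, against 30.8, 27.5 and 29.8 in WT_PBS libraries, a log2 change of 0.86 ± 0.08 (limma adjusted p = 2.43e-05). Kars had 26.0, 24.8 and 22.2 in WT_CL, against 31.3, 27.1 and 32.4 in WT_PBS libraries, a change of -0.31 ± 0.09 (limma adjusted p = 0.0244), a call that was lost when WT_PBS replicate 1 or 3 or WT_CL replicate 2 or 3 was left out. These 2 genes, whose products also serve mitochondria, were the only calls of the 20 in this fit, and they went in opposite directions. Dars (aspartate) had 30.5, 31.3 and 30.4 in WT_CL, against 34.0, 35.1 and 38.9 in WT_PBS libraries, a change of -0.22 ± 0.08 (limma adjusted p = 0.0522). Cars had 5.02, 5.62 and 4.71 in WT_CL, against 4.29, 4.13 and 4.19 in WT_PBS libraries, a change of 0.25 ± 0.10 (limma adjusted p = 0.0786); neither passed. On the deposited scale, where the all-gene median itself was below 0, Gars was still higher (0.54) and 12 of the 20 were called lower.

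**Figure D2:**
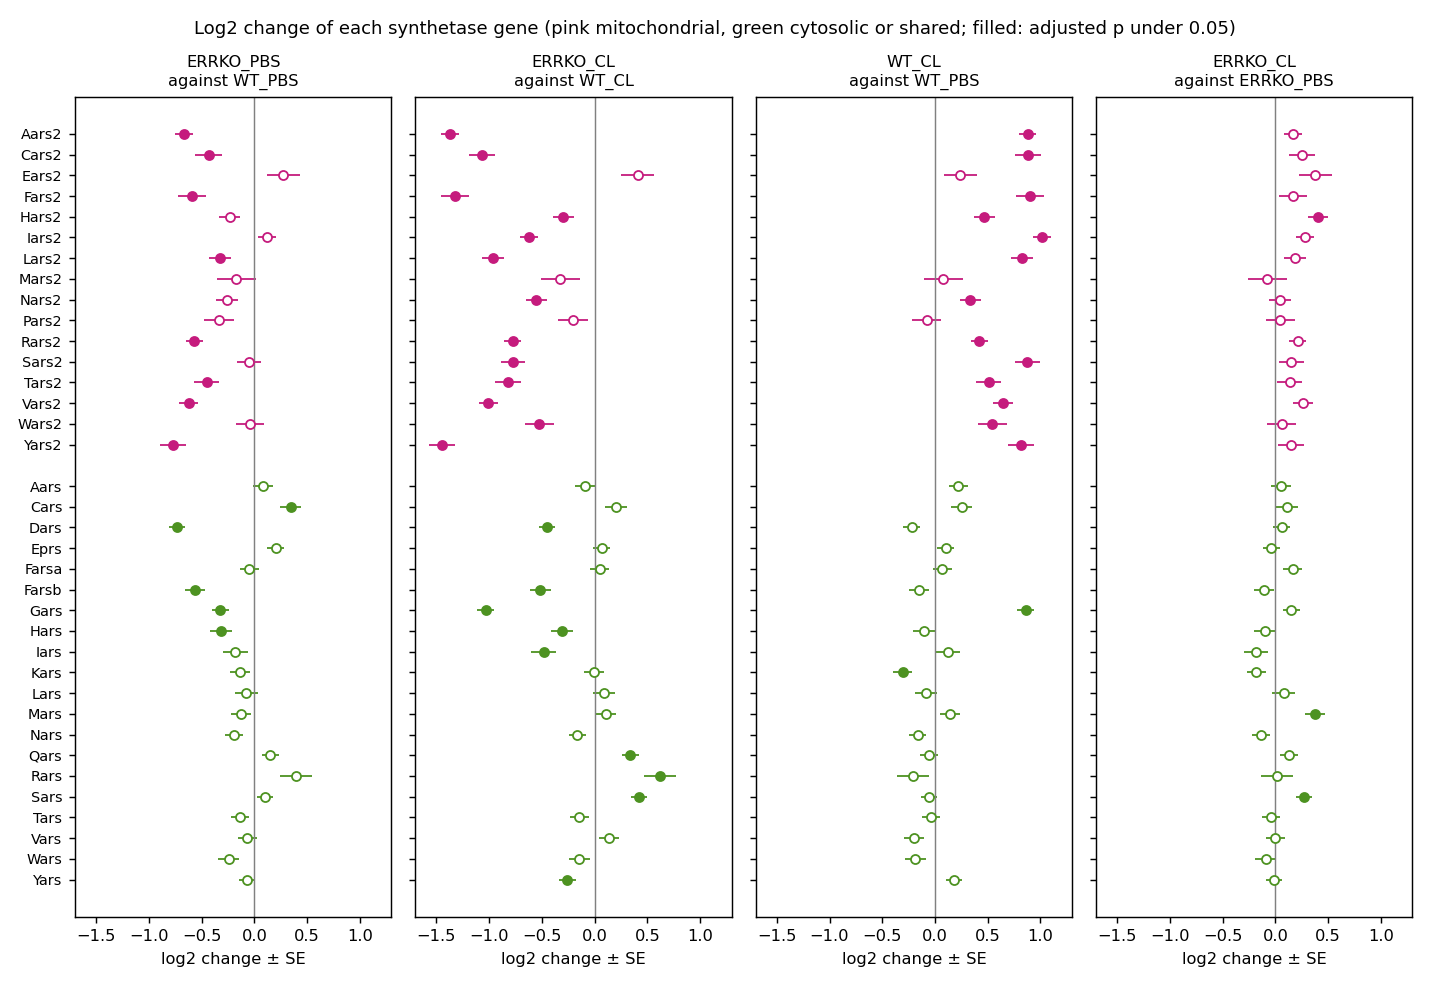
Log2 change ± SE of each of 36 synthetase genes (rows) in 4 comparisons (panels), on median-of-ratios scaled RPKM; pink, mitochondrial; green, cytosolic or shared; filled points have an adjusted p under 0.05. Mitochondrial points lie mostly right of 0 in WT_CL against WT_PBS (13 called higher) and left of 0 in ERRKO_CL against WT_CL (13 called lower), while on the deposited scale ERRKO_CL against WT_CL had 6 mitochondrial genes called lower and 3 higher, and ERRKO_PBS against WT_PBS 6 higher and 0 lower.

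With the agonist, ERRKO mice had lower RNA than WT mice for 13 of 16 mitochondrial synthetases, led by Yars2, Aars2 and Fars2, and for Gars, on the scaled values. Cytosolic genes went both ways, with Sars, Rars and Qars higher and Gars, Dars, Farsb, Iars, Yars and Hars lower; on the deposited scale 17 of the 20 were called higher and only Gars lower. Of all tested genes 19.8% were called higher and 21.6% lower in ERRKO_CL against WT_CL on the scaled values. On the deposited scale 70.5% of all genes were called higher and 6.62% lower. This comparison uses the same WT_CL libraries as the one above, so the genes named in both do not support each other.

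Yars2 had 7.97, 8.66 and 6.52 scaled RPKM in ERRKO_CL libraries, against 20.9, 22.5 and 21.8 in WT_CL libraries, a log2 change of -1.44 ± 0.12 (limma adjusted p = 1.99e-06). Aars2 had 4.29, 4.23 and 4.29 in ERRKO_CL, against 12.0, 12.0 and 11.6 in WT_CL libraries, a change of -1.37 ± 0.08 (limma adjusted p = 1.25e-07). Fars2 had 14.8, 13.6 and 15.1 in ERRKO_CL, against 37.8, 36.7 and 36.7 in WT_CL libraries, a change of -1.33 ± 0.13 (limma adjusted p = 7.69e-06). These ERRKO_CL levels are all less than the lowest WT_CL library by a wide margin. Vars2 had 4.40, 5.39 and 4.57 in ERRKO_CL, against 10.2, 10.4 and 9.63 in WT_CL libraries, a change of -1.01 ± 0.09 (limma adjusted p = 4.11e-06). Cars2, Lars2, Tars2, Rars2, Sars2, Iars2, Nars2, Wars2 and Hars2 fell by 1.07, 0.96, 0.82, 0.78, 0.77, 0.62, 0.55, 0.52 and 0.30 on the log2 scale, and on the deposited scale those of Iars2, Nars2, Wars2 and Hars2 turned to 0.09, 0.09, 0.03 and 0.39. Iars2, the most abundant member, had 38.5, 45.6 and 43.6 in ERRKO_CL, against 62.1, 69.4 and 65.5 in WT_CL libraries. The Hars2 call had an adjusted p of 0.0279 and was lost without any 1 of ERRKO_CL replicates 1, 2 and 3 or of WT_CL replicates 1 and 2.

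Ears2, Mars2 and Pars2 were again the members that did not pass, at 0.41, -0.33 and -0.21. Ears2 was higher rather than lower, with 2.10, 1.76 and 1.63 in ERRKO_CL, against 1.51, 1.38 and 0.917 in WT_CL libraries; its limma adjusted p was 0.0536, and edgeR and DESeq2 on the recovered reads called it (adjusted p = 0.0468 and 0.0355). The set's median change was -0.78, against 0.01 over all tested genes, and the same 13 genes were lower with no overlap of libraries (27.8% of all tested genes were). On the deposited scale 6 mitochondrial genes were called lower and 3 higher, and the set's median was -0.10, where that of all genes was 0.63 and 70.5% of all genes were called higher and 6.62% lower. Brown adipocyte markers were all lower, 8 of 8, with sums of 1238 to 1556 in ERRKO_CL and 7685 to 9657 in WT_CL libraries and none at 0. Of other marker lists, 4 of 6 pan-adipocyte markers were called higher, with sums of 18799 to 19126 in ERRKO_CL and 15944 to 16948 in WT_CL libraries, as were 4 of 5 fibroblast markers (372 to 516 in ERRKO_CL and 229 to 262 in WT_CL) and 2 of 6 macrophage markers. The part of these cell types in the values was not tested. Without ERRKO_PBS and ERRKO_CL replicates 3, which had the highest muscle marker sums, 12 mitochondrial genes were called lower (not Hars2).

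Gars had 26.6, 25.6 and 25.7 scaled RPKM in ERRKO_CL, against 58.9, 49.8 and 52.9 in WT_CL libraries, a log2 change of -1.03 ± 0.08 (limma adjusted p = 1.05e-06), and on the deposited scale it was also lower (-0.33). Dars had 21.6, 21.3 and 24.2 in ERRKO_CL, against 30.5, 31.3 and 30.4 in WT_CL libraries, a change of -0.45 ± 0.08 (limma adjusted p = 6.84e-04) that turned to 0.25 on the deposited scale. Farsb, the β subunit of the cytosolic phenylalanine enzyme, had 10.5, 9.38 and 9.78 in ERRKO_CL, against 13.4, 16.2 and 13.6 in WT_CL libraries, a change of -0.51 ± 0.10 (limma adjusted p = 9.80e-04) and 0.17 on the deposited scale. Its partner Farsa, the α subunit, changed by 0.05 and did not pass. Sars had 27.9, 27.2 and 27.6 in ERRKO_CL, against 20.6, 19.9 and 20.9 in WT_CL libraries, a change of 0.42 ± 0.08 (limma adjusted p = 8.49e-04). Rars and Qars (glutamine) rose by 0.62 and 0.34, and Iars, Hars and Yars fell by 0.48, 0.31 and 0.26; on the deposited scale the last 3 turned to 0.17, 0.39 and 0.42, and those for Hars and Yars were each lost without some single libraries. Kars changed by -0.01 and did not pass. The median of the cytosolic or shared set was -0.05 and lay 0.73 above that of the mitochondrial set (0.75 on the deposited scale).

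**Figure D3:**
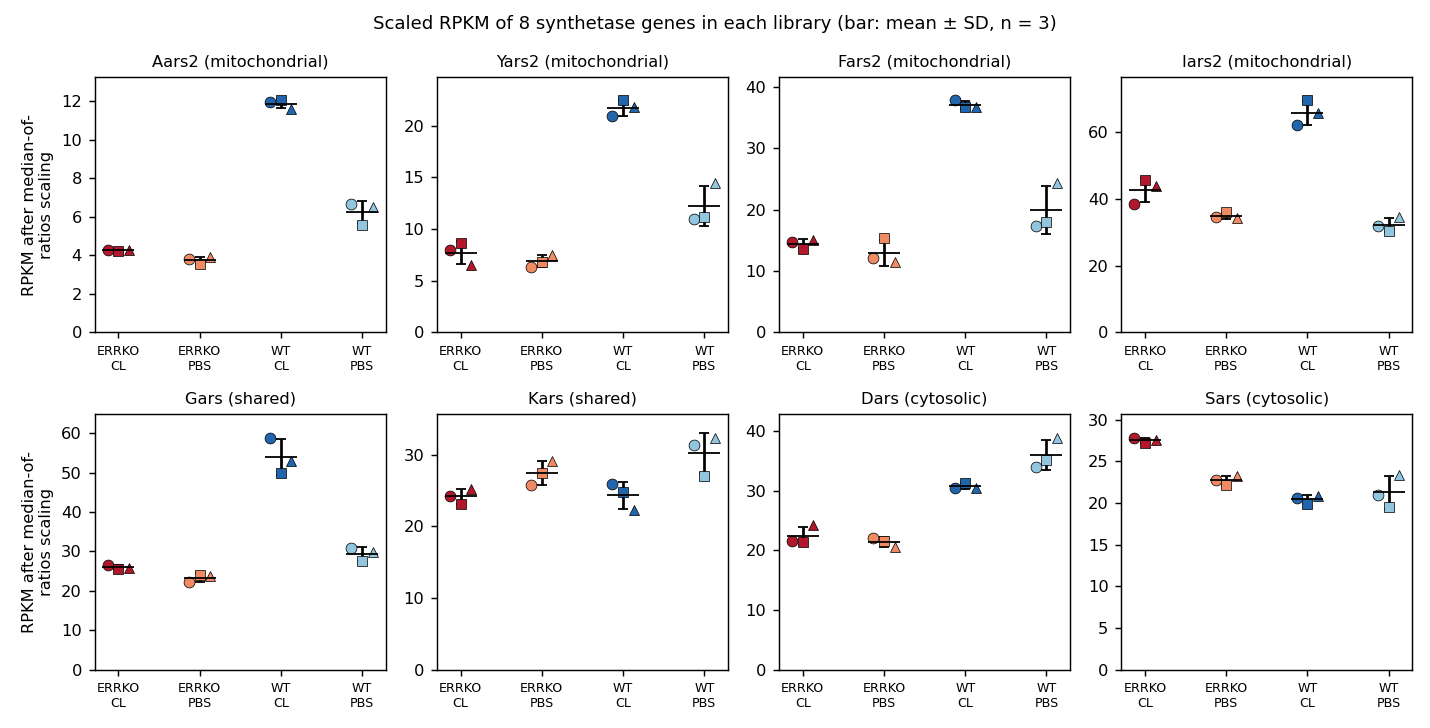
Scaled RPKM in each library of 4 mitochondrial genes (top), the shared genes Gars and Kars and the cytosolic genes Dars and Sars (bottom), by group; bars give the mean ± SD (n = 3). For Aars2, Yars2, Fars2, Iars2 and Gars the 3 WT_CL libraries lie above all others, which is not so for Kars, Dars or Sars.

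Without the agonist, 8 of the 16 mitochondrial synthetases were lower in ERRKO_PBS than in WT_PBS on the scaled values, whereas on the deposited scale 0 were called lower and 6 higher. Aars2, Rars2, Vars2 and Yars2 had the smallest p. Of all tested genes 15.8% were called higher and 18.4% lower on the scaled values, and 66.3% higher and 6.22% lower on the deposited ones.

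Aars2 had 3.801, 3.55 and 3.90 scaled RPKM in ERRKO_PBS, against 6.67, 5.59 and 6.50 in WT_PBS libraries, a log2 change of -0.66 ± 0.08 (limma adjusted p = 7.58e-05). Rars2 had 8.73, 9.71 and 9.35 in ERRKO_PBS, against 13.1, 13.7 and 15.2 in WT_PBS libraries, a change of -0.57 ± 0.08 (limma adjusted p = 1.64e-04). Vars2 had 3.90, 3.69 and 4.09 in ERRKO_PBS, against 6.67, 6.31 and 5.85 in WT_PBS libraries, a change of -0.62 ± 0.09 (limma adjusted p = 2.77e-04). These were among 8 mitochondrial genes that were lower with no overlap of libraries (22.8% of all tested genes were). Yars2 had 6.33, 6.84 and 7.49 in ERRKO_PBS, against 11.0, 11.2 and 14.4 in WT_PBS libraries, a change of -0.77 ± 0.12 (limma adjusted p = 4.35e-04). Fars2, Tars2, Cars2 and Lars2 fell by 0.60, 0.45, 0.43 and 0.33, and on the deposited scale Tars2, Cars2 and Lars2 turned to 0.10, 0.12 and 0.23; the last 3 calls were each lost without ERRKO_PBS replicate 1, and for Cars2 and Lars2 also without WT_PBS replicate 1 or 3 and for Lars2 without ERRKO_PBS replicate 3, which left 5 mitochondrial genes called lower without ERRKO_PBS replicate 1. Iars2 and Sars2, which had changed with the agonist in WT, did not pass here, with 0.12 and -0.05, though under quantile normalization Iars2 was called higher (0.26, limma adjusted p = 0.0236). The set's median was -0.33, against 0.01 over all tested genes, and 0.18 on the deposited scale, where that of all genes was 0.53. The brown adipocyte marker sum was 401 to 692 in ERRKO_PBS and 3945 to 5901 in WT_PBS libraries, with 7 of 8 markers called lower and Elovl3 at 0 in WT_PBS replicate 1; 3 of 6 pan-adipocyte markers and 2 of 3 lymphocyte markers were called higher and 1 of 5 endothelial markers lower. Their part in these values was not tested. Without the replicates 3 of both ERRKO groups, 5 mitochondrial genes were called lower.

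Among the 20 cytosolic or shared genes, Dars, Farsb, Gars and Hars were lower and Cars higher in ERRKO_PBS, on the scaled values. Of all tested genes 18.4% were lower and 15.8% higher, so these counts are near or below those of genes at large. On the deposited scale 18 of the 20 were called higher and 0 lower, where 66.3% of all genes were higher and 6.22% lower. Dars had 22.1, 21.6 and 20.5 scaled RPKM in ERRKO_PBS, against 34.0, 35.1 and 38.9 in WT_PBS libraries, a log2 change of -0.73 ± 0.08 (limma adjusted p = 2.08e-05; -0.15 on the deposited scale). Farsb had 10.6, 10.9 and 10.5 in ERRKO_PBS, against 15.98, 14.6 and 17.6 in WT_PBS libraries, a change of -0.56 ± 0.10 (limma adjusted p = 6.84e-04; 0.01 on the deposited scale). Gars had 22.1, 24.0 and 23.9 in ERRKO_PBS, against 30.8, 27.5 and 29.8 in WT_PBS libraries, a change of -0.32 ± 0.08 (limma adjusted p = 0.00896), which turned to 0.26 on the deposited scale. For Dars and Farsb, the WT_CL and WT_PBS levels did not differ past the test. Cars had 5.38, 5.76 and 5.28 in ERRKO_PBS, against 4.29, 4.13 and 4.19 in WT_PBS libraries, a change of 0.34 ± 0.10 (limma adjusted p = 0.0204), and its call was lost without ERRKO_PBS replicate 2 or WT_PBS replicate 2. Hars changed by -0.32 (0.26 on the deposited scale), a call lost without any 1 of the ERRKO_PBS libraries or WT_PBS replicate 3. The other 15 did not pass; under quantile normalization Eprs, Qars, Rars and Sars were called higher too and Gars missed the threshold (limma adjusted p = 0.0625), and edgeR and DESeq2 on recovered reads called Rars higher (adjusted p = 0.0468 and 0.0469). The set's median was -0.10 on the scaled values, which is 0.23 above that of the mitochondrial set.

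In ERRKO_CL against ERRKO_PBS, 3 of the 36 synthetases were called higher, Hars2, Mars and Sars, and 0 lower. Among all tested genes 6.68% were called higher and 3.62% lower, so the count of calls is near that of genes at large. Hars2 had 12.4, 12.6 and 11.8 scaled RPKM in ERRKO_CL, against 9.14, 8.86 and 9.52 in ERRKO_PBS libraries, a log2 change of 0.40 ± 0.10 (limma adjusted p = 0.0233). Mars had 18.7, 19.99 and 17.2 in ERRKO_CL, against 13.7, 14.3 and 14.7 in ERRKO_PBS libraries, a change of 0.38 ± 0.09 (limma adjusted p = 0.0259). Sars had 27.9, 27.2 and 27.6 in ERRKO_CL, against 22.8, 22.2 and 23.3 in ERRKO_PBS libraries, a change of 0.27 ± 0.08 (limma adjusted p = 0.0434). These 3 genes were higher without overlap of libraries, as were Aars2, Cars2, Ears2, Iars2, Rars2, Vars2 and Gars, which makes 7 of 16 mitochondrial and 3 of 20 cytosolic or shared genes (18.8% of all tested genes). Farsb, Hars, Kars and Nars, 4 of the 20, were lower without overlap (13% of all tested genes). For Hars2, Mars and Sars each call was lost without any 1 of replicates 1 and 2 of either ERRKO group, and without the replicates 3 of both (limma adjusted p = 0.0795, 0.0617 and 0.159). The Sars call was the least stable, lost in 10 of 12 single omissions, against 4 of 12 for Hars2 and for Mars. It was also lost under quantile normalization, no variance trend, only the groups compared, the replicate block and edgeR. On the deposited scale 0 mitochondrial and 0 cytosolic genes were called higher and 3 cytosolic genes lower in this comparison (3.23% of all genes higher and 13.7% lower). Iars2, Vars2 and Rars2, next in order of p, changed by 0.28 ± 0.09, 0.26 ± 0.09 and 0.21 ± 0.08 (limma adjusted p = 0.0603, 0.0997 and 0.119). Among the 16 mitochondrial genes 15 had a positive change, and the set's median was 0.17 (-0.02 in deposited values), against 0.02 over all tested genes. Kars and Gars changed by -0.18 ± 0.09 and 0.15 ± 0.08 and did not pass. Brown adipocyte markers did rise here: 6 of 8 were called higher and 0 lower, also on the deposited scale. Their sums were 1238 to 1556 in ERRKO_CL and 401 to 692 in ERRKO_PBS libraries. Of other marker lists, 1 of 6 pan-adipocyte markers was called higher, and 1 of 6 macrophage and 1 of 3 lymphocyte markers lower. The part of these cell types in the values was not tested.

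The difference between the genotypes' responses was tested directly by the interaction, the ERRKO response minus the WT response. It was called for 4 mitochondrial genes (Iars2, Aars2, Sars2 and Lars2) and, of the cytosolic list, for Gars, all with the smaller rise in ERRKO; of all tested genes 2.02% were called in this direction and 1.89% in the other. Iars2 had responses of 0.28 in ERRKO and 1.02 in WT, a difference of -0.74 ± 0.12 (limma adjusted p = 0.00719). Aars2 had responses of 0.17 in ERRKO and 0.88 in WT, a difference of -0.71 ± 0.12 (limma adjusted p = 0.00802). Gars had responses of 0.15 in ERRKO and 0.86 in WT, a difference of -0.71 ± 0.12 (limma adjusted p = 0.00693). These 3 calls held when any single library was left out. The differences for Sars2 and Lars2 were -0.72 ± 0.16 and -0.63 ± 0.15 (limma adjusted p = 0.0336 and 0.0353), and both were lost without some single libraries, 8 of 12 for Sars2 and 9 of 12 for Lars2, and on the deposited scale (limma adjusted p = 0.0612 and 0.0571). Fars2, Yars2 and Cars2, with differences of -0.73, -0.67 and -0.63, missed the threshold (limma adjusted p = 0.0522, 0.0554 and 0.0714) and passed it without WT_PBS replicate 3, when 7 mitochondrial genes were called. Without the replicates 3 of both ERRKO groups only Iars2 of the mitochondrial genes was called.

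Over the set, 14 of the 16 mitochondrial genes had a negative difference (the signed ERRKO change below the WT change), all but Ears2 and Pars2. The median difference was -0.43, against 0.07 in the cytosolic or shared set, where 7 of 20 were negative. A negative sign is not always a smaller response in size: Iars changed by 0.12 in WT and -0.18 in ERRKO. Cytosolic falls can also be smaller in ERRKO with a positive difference, as for Kars (-0.31 in WT and -0.18 in ERRKO). Hars2 had nearly equal responses, 0.40 in ERRKO and 0.47 in WT, and the interaction did not pass (-0.06 ± 0.14, limma adjusted p = 0.866). Sars, Dars and Iars had differences of 0.33 ± 0.11, 0.28 ± 0.11 and -0.31 ± 0.16, none of which passed (limma adjusted p = 0.124, 0.198 and 0.351).

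**Figure D4:**
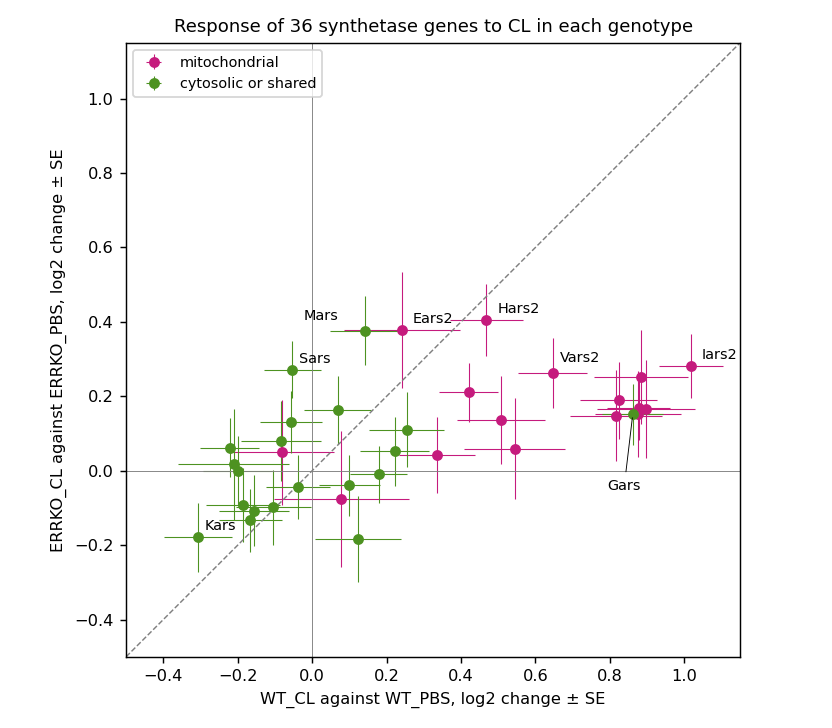
Each point is a synthetase gene; the y axis is its log2 change ± SE in ERRKO_CL against ERRKO_PBS and the x axis that in WT_CL against WT_PBS, on scaled RPKM, with equal responses on the dashed line. Of the 16 mitochondrial genes 14 lie below the line, and Gars, of the cytosolic list, lies among them; no library enters both axes.

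Pairing each mitochondrial gene with the cytosolic gene for the same amino acid (Eprs for both Ears2 and Pars2, Farsa for Fars2) gives log2 ratios that, apart from the added 0.5, do not depend on library scaling. In ERRKO_CL against WT_CL the ratio was lower for 14 of 16 pairs, 12 of them with no overlap of libraries, with a median difference of -0.86. In ERRKO_PBS against WT_PBS it was lower for 12 pairs, 8 with no overlap, with a median of -0.28. In WT_CL against WT_PBS it was higher for 14 pairs, 13 with no overlap, with a median of 0.63. In ERRKO_CL against ERRKO_PBS it was higher for 14 pairs, 4 with no overlap, with a median of 0.15, and lower with no overlap for 1, Mars2 with Mars (-0.45). No share was computed over other gene pairs, so these no-overlap counts have no background of their own. Among single tested genes, 27.8% were lower without overlap in ERRKO_CL against WT_CL and 22.8% in ERRKO_PBS against WT_PBS. In WT_CL against WT_PBS 24% were higher without overlap, and in ERRKO_CL against ERRKO_PBS 18.8% were higher and 13% lower. Fars2 exceeded Farsa in every group, by 0.57 ± 0.06 (SD, n = 3) in ERRKO_CL, 0.56 ± 0.27 in ERRKO_PBS, 1.94 ± 0.11 in WT_CL and 1.11 ± 0.27 in WT_PBS libraries. Yars2 was below Yars in ERRKO libraries, at -0.26 ± 0.22 in ERRKO_CL and -0.42 ± 0.06 in ERRKO_PBS, and above it in WT libraries, at 0.93 ± 0.03 in WT_CL and 0.29 ± 0.17 in WT_PBS. The isoleucine pair overlapped between ERRKO_CL and WT_CL (3.09 ± 0.23 and 3.23 ± 0.12), and Iars as well as Iars2 was called lower in ERRKO_CL. The histidine pair, 2 neighbouring genes on chromosome 18 that overlap at their starts and run in opposite directions, had ratios of -0.33 ± 0.09 in ERRKO_CL, -0.84 ± 0.06 in ERRKO_PBS, -0.35 ± 0.02 in WT_CL and -0.92 ± 0.11 in WT_PBS libraries, so it moved with the agonist in both genotypes; 7.97% of the exon bases of Hars and 4.56% of those of Hars2 overlap the other gene.

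The shared genes were set against the mean standardised profile of the 16 mitochondrial genes over the 12 libraries, on the log2 scale. Gars had a Pearson correlation of 0.969 with it, whereas Kars had -0.25. Single mitochondrial genes ran from -0.091 for Ears2 to 0.985 for Cars2. Between them lay Mars2 and Pars2 (0.529 each), Iars2 (0.835) and Aars2 (0.966), among others. Each mitochondrial gene is itself part of the profile, while Gars and Kars are not. Libraries fall into 4 groups and share their scaling, so these values describe likeness only. Gars made up 7.86% to 8.31% of the summed RPKM of the 20 cytosolic or shared genes in ERRKO_CL, 7.13% to 7.81% in ERRKO_PBS, 14.0% to 16.4% in WT_CL and 8.16% to 9.03% in WT_PBS libraries. Among purely cytosolic genes Yars came nearest to the mitochondrial profile (0.895), with a narrow spread of levels: 9.49, 9.03 and 9.32 in ERRKO_CL, 8.999, 8.85 and 10.2 in ERRKO_PBS, 10.9, 11.3 and 11.4 in WT_CL and 9.64, 9.69 and 10.2 in WT_PBS libraries. The 2 shared genes lie on different chromosomes, Gars at chr6:55038007-55079500 on the plus strand and Kars at chr8:111993443-112011323 on the minus strand (GENCODE M21, GRCm38), and neither has exon bases that overlap another gene.

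Outside the list, the 5 tested genes most like the mitochondrial profile were Igsf21 (r = 0.994), Memo1 (0.990), Mrpl38 (0.989), Pdhx (0.988) and Urod (0.987) over 12 libraries. Mrpl38 encodes a protein of the mitochondrial ribosome, Pdhx a component of pyruvate dehydrogenase and Urod an enzyme of heme synthesis. Mrpl38 had 25.2, 25.2 and 23.5 scaled RPKM in ERRKO_CL, 20.4, 21.3 and 23.4 in ERRKO_PBS, 54.3, 60.9 and 52.3 in WT_CL and 28.9, 29.6 and 35.1 in WT_PBS libraries. Genes like the cytosolic profile were less close, among them Tuba4a (0.895), Nudt9 (0.840), Pdcd5 (0.839) and AI846148 (0.831). The cytosolic or shared genes themselves ran from -0.479 for Rars to 0.729 for Tars against it, so that profile is not common to the set.

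Factors that act beside the mitochondrial synthetases were examined next. Of 11 mitochondrial translation factors, 9 were called lower in ERRKO_CL against WT_CL and 8 in ERRKO_PBS against WT_PBS, 8 were called higher in WT_CL against WT_PBS and 0 in ERRKO_CL against ERRKO_PBS. Of all tested genes 21.6% were lower in ERRKO_CL against WT_CL and 18.4% in ERRKO_PBS against WT_PBS. With the agonist 18% were higher in WT and 6.68% in ERRKO. On the deposited scale 7 were called lower and 2 higher in ERRKO_CL, 5 lower and 2 higher in ERRKO_PBS, and 4 higher in WT_CL against WT_PBS. There 6.62% of all genes were lower and 70.5% higher in ERRKO_CL, and 6.22% and 66.3% in ERRKO_PBS, while 7.2% were higher in WT_CL against WT_PBS. Gfm1, a mitochondrial elongation factor, had 14.0, 16.2 and 16.005 scaled RPKM in ERRKO_CL, 12.5, 15.6 and 12.7 in ERRKO_PBS, 74.8, 79.3 and 75.9 in WT_CL and 36.3, 33.5 and 43.1 in WT_PBS libraries. Mtif2, an initiation factor, had 10.9, 10.3 and 11.4 in ERRKO_CL, 8.77, 8.53 and 9.60 in ERRKO_PBS, 36.2, 33.5 and 34.0 in WT_CL and 16.8, 15.7 and 18.4 in WT_PBS libraries. Guf1, a ribosome-binding GTPase of mitochondria, had 3.33, 3.11 and 3.35 in ERRKO_CL, 3.00, 2.70 and 2.45 in ERRKO_PBS, 11.7, 11.4 and 11.7 in WT_CL and 8.30, 7.41 and 7.24 in WT_PBS libraries. Their changes in ERRKO_CL against WT_CL, -2.28, -1.63 and -1.69, were larger in size than that of any mitochondrial synthetase, and the median of the 11 was -1.17 there.

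Of 18 measured genes of mitochondrial tRNA processing and modification, 9 were called lower in ERRKO_CL against WT_CL, 7 lower and 1 higher in ERRKO_PBS against WT_PBS, 9 higher in WT_CL against WT_PBS and 3 higher in ERRKO_CL against ERRKO_PBS. The shares of all tested genes were 21.6% lower in ERRKO_CL against WT_CL, and 18.4% lower and 15.8% higher in ERRKO_PBS against WT_PBS. With the agonist 18% were higher in WT and 6.68% in ERRKO. On the deposited scale 9 were called higher and 1 lower in ERRKO_CL (70.5% and 6.62% of all genes) and 12 higher and 0 lower in ERRKO_PBS (66.3% and 6.22% of all genes). There 5 were higher and 4 lower in WT_CL against WT_PBS (7.2% and 38.1% of all genes). Mto1, which modifies the wobble base of some mitochondrial tRNAs, had 7.85, 8.90 and 8.53 in ERRKO_CL, 5.97, 7.48 and 6.00 in ERRKO_PBS, 17.5, 21.2 and 19.6 in WT_CL and 8.51, 8.69 and 10.6 in WT_PBS libraries. Nsun3, which methylates mitochondrial methionine tRNA, had 2.71, 2.56 and 3.04 in ERRKO_CL, 2.92, 2.13 and 2.17 in ERRKO_PBS, 6.48, 5.50 and 4.83 in WT_CL and 1.70, 1.58 and 1.59 in WT_PBS libraries. It was the gene called higher in ERRKO_PBS (0.44 ± 0.13, limma adjusted p = 0.0207), and in WT it rose with the agonist by 1.52.

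Of the 3 genes of the amidotransferase that makes mitochondrial glutaminyl-tRNA, Qrsl1 and Gatb were lower in both ERRKO groups, on the scaled and the deposited values. Qrsl1, its catalytic subunit, had 2.35, 1.98 and 2.02 scaled RPKM in ERRKO_CL and 1.79, 1.67 and 2.44 in ERRKO_PBS, against 10.1, 8.61 and 8.77 in WT_CL and 9.97, 8.27 and 10.5 in WT_PBS libraries. Its log2 changes were -1.88 ± 0.13 with the agonist and -2.03 ± 0.13 without it (limma adjusted p = 4.04e-07 and 3.41e-07), past those of every mitochondrial synthetase in size. Gatb had 10.6, 10.3 and 11.4 in ERRKO_CL and 8.67, 11.8 and 8.96 in ERRKO_PBS, against 21.5, 21.6 and 21.0 in WT_CL and 18.3, 17.6 and 23.0 in WT_PBS libraries. Gatc, the remaining subunit, changed by 0.02 and -0.20 and did not pass. None of the 3 passed in WT_CL against WT_PBS or in ERRKO_CL against ERRKO_PBS. Ears2, which feeds this pathway, was not lower in either genotype comparison (0.41 and 0.27).

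Of the 3 scaffold genes of the cytosolic multisynthetase complex, Aimp1 and Eef1e1 were called higher in ERRKO_CL against WT_CL (0.45 and 0.66). Aimp1 and Aimp2 were called lower in WT_CL against WT_PBS (-0.56 and -0.50). Of all tested genes 19.8% were higher in the first and 12.6% lower in the second comparison. On the deposited scale all 3 were called higher in ERRKO_CL and in ERRKO_PBS (70.5% and 66.3% of all genes). There all 3 were called lower in WT_CL against WT_PBS (38.1% of all genes). Aimp1 had 25.1, 24.0 and 24.9 in ERRKO_CL, 22.6, 23.2 and 25.6 in ERRKO_PBS, 16.6, 18.002 and 19.5 in WT_CL and 23.7, 26.0 and 30.9 in WT_PBS libraries. Of 20 cytosolic translation factors, 4 were called higher and 3 lower in ERRKO_CL against WT_CL, 3 higher and 4 lower in ERRKO_PBS against WT_PBS, 3 higher and 1 lower in WT_CL against WT_PBS, and 1 each way in ERRKO_CL against ERRKO_PBS; on the deposited scale 17 were called higher and 0 lower in both genotype comparisons, where 70.5% of all genes were higher in ERRKO_CL and 66.3% in ERRKO_PBS. The scaled counts of this list in the genotype comparisons are near or below the shares of all genes given above. Eif4ebp1, a repressor of cap-dependent initiation, and Eef2k, the kinase that slows elongation, were higher in ERRKO_CL by 0.94 and 0.87 and in ERRKO_PBS by 1.07 and 1.64.

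Many cytosolic synthetase genes are known targets of ATF4, the factor induced when amino acids run short, so its other targets are given beside them. Atf4 itself had 31.4, 26.0 and 27.5 in ERRKO_CL, 27.8, 32.4 and 32.9 in ERRKO_PBS, 39.1, 35.0 and 29.9 in WT_CL and 27.7, 31.5 and 30.8 in WT_PBS libraries, and was not called in any comparison. Of 18 measured genes of the amino acid response, 5 were called higher and 3 lower in ERRKO_CL against WT_CL, near the 19.8% and 21.6% of all genes. In ERRKO_PBS against WT_PBS 5 were higher and 2 lower (15.8% and 18.4% of all genes). In WT_CL against WT_PBS 8 were higher and 4 lower (18% and 12.6%), and in ERRKO_CL against ERRKO_PBS 1 higher and 3 lower (6.68% and 3.62%). On the deposited scale 11 were higher in ERRKO_CL and 15 in ERRKO_PBS, with 0 lower, where 70.5% and 66.3% of all genes were higher. On that scale 3 were higher and 7 lower in WT_CL against WT_PBS (7.2% and 38.1% of all genes). In ERRKO_CL against ERRKO_PBS 1 was higher and 4 lower there (3.23% and 13.7% of all genes). Phgdh, the first enzyme of serine synthesis, had 124, 123 and 139.6 scaled RPKM in ERRKO_CL, 134, 149 and 135 in ERRKO_PBS, 10.9, 5.64 and 9.24 in WT_CL and 32.3, 36.5 and 54.2 in WT_PBS libraries. Psat1, which acts next in that pathway, had 36.3, 39.4 and 55.2 in ERRKO_CL, 38.5, 53.3 and 33.9 in ERRKO_PBS, 2.91, 3.27 and 2.84 in WT_CL and 2.29, 3.26 and 6.28 in WT_PBS libraries. Every ERRKO library was above every WT library for both, while Asns, the asparagine synthetase, was lower in ERRKO_CL than in WT_CL (-0.68, and 0.03 on the deposited scale) and higher in WT_CL than in WT_PBS (0.99). Of 7 measured amino acid transporters, Slc1a5 and Slc3a2 were called higher and Slc38a2 lower in ERRKO_CL against WT_CL (0.85, 0.33 and -0.81). Of all tested genes 19.8% were higher and 21.6% lower there. On the deposited scale 4 of the 7 were called higher and 0 lower (70.5% and 6.62% of all genes). Slc38a2, a neutral amino acid carrier, had 10.2, 10.3 and 9.26 in ERRKO_CL, 8.92, 9.08 and 7.73 in ERRKO_PBS, 17.96, 18.6 and 16.8 in WT_CL and 10.4, 10.0 and 8.19 in WT_PBS libraries.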

How the data were processed

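RNA of brown adipose tissue was sequenced in 12 libraries, 3 per group, grouped by the labels. The submitters' processing notes name bcl2fastq 2.16.0.10, cutadapt, STAR 2.3.0, edgeR and the builds mm9 and mm10, with no role for either build; how reads were counted, with which annotation and with or without strand, is not given in the sources used here. The authors deposited RPKM for 24452 genes, from which levels were taken. A second deposited table gives a linear signal for 12380 genes, in which 100% of values are whole multiples of a step per library (tolerance 0.01), so reads were recovered from it for count tests; 9 stray cells in it were not used. Depth limits precision for low genes.

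RPKM were divided by median-of-ratios factors, and log2 of the result + 0.5 was fitted with limma 3.58.1 in R 4.3.3 (trend, 4 group means, 8 residual degrees of freedom) for 12249 genes with a mean of at least 0.5 RPKM. Benjamini-Hochberg adjustment ran over all of them within each of 5 comparisons, at 0.05. Some groups enter more than 1 comparison. Alternatives were the deposited scale, quantile normalization, other pseudocounts and filters, no trend, only the groups compared, a replicate block, omitted libraries, and edgeR 4.0.16 (TMM) and DESeq2 1.42.0 on recovered reads. Correlations of deviations were not over 0.1 for every same-numbered pair of libraries, so the numbers were not used as pairs.

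Members and gene lists were chosen with earlier results of these data known. Library values are given mainly for members and listed genes with a small p in a comparison, though not for every one. They are also given for Esrra, Ucp1, Atf4 and Ckm. Gatc, Eef1e1, Aimp2 and other listed genes appear by change or count. Prorp and Mrpl58 were looked up under older symbols. Positions are from GENCODE M21, promoters from RefSeq.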

Additional observations from a re-analysis of the deposited data

Results flagged for a closer look

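The response to CL316,243 differed between the genotypes, by the limma interaction test (adjusted p under 0.05 over all 12249 genes), for 5 synthetases and 9 genes of the other lists. Among the synthetases the ERRKO response minus the WT response was -0.71 for Gars (adjusted p = 0.00693), -0.71 for Aars2 (0.00802), -0.74 for Iars2 (0.00719), -0.63 for Lars2 (0.0353) and -0.72 for Sars2 (0.0336), on the log2 scale.

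Of the genes that act with mitochondrial tRNAs and translation, it was -0.67 for Mto1 (adjusted p = 0.0436), -1.34 for Nsun3 (0.00296), -0.85 for Gfm1 (0.0132) and -0.74 for Mtif2 (0.00628). The scaffold gene Aimp1 had 0.61 (0.0377), with responses of 0.05 in ERRKO and -0.56 in WT. In the amino acid response list it was 2.09 for Phgdh (0.00391), -0.90 for Atf5 (0.0237) and -0.70 for Cebpg (0.0260), and the transporter Slc38a2 had -0.67 (0.0266). Phgdh responses were -0.11 in ERRKO and -2.20 in WT. The calls for Sars2, Lars2, Mto1, Cebpg and Slc38a2 missed the threshold on the deposited scale (limma adjusted p = 0.0612, 0.0571, 0.0522, 0.0562 and 0.0785), and the other 9 held. Groups of 3 libraries were too small to look for outlying libraries by the gap-to-range ratio.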

How the results depend on the processing

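The scale between libraries mattered most. On the deposited RPKM scale, whose all-gene medians are shifted, the number of genes called was 8877 in ERRKO_PBS against WT_PBS, 9451 in ERRKO_CL against WT_CL and 2068 in ERRKO_CL against ERRKO_PBS (4189, 5078 and 1261 on the scaled values). Mitochondrial members called lower there were 0 without and 6 with the agonist, and 2 for the interaction; those called higher were 8 in WT_CL against WT_PBS and 0 in ERRKO_CL against ERRKO_PBS. Cytosolic members called lower were 0 and 1, and 0 were called higher in ERRKO_CL against ERRKO_PBS. Signs that turned included those of Farsb (0.0090), Kars (0.45) and Gars (0.26) in ERRKO_PBS against WT_PBS, Dars (0.25), Kars (0.70) and Farsb (0.17) in ERRKO_CL against WT_CL, Cars (-0.038) in WT_CL against WT_PBS and Gars (-0.043) in ERRKO_CL against ERRKO_PBS. With a mean of at least 2 RPKM, which leaves out the 4 lowest mitochondrial members, the mitochondrial median lay -0.34, -0.84, 0.88 and -0.70 from the cytosolic one in ERRKO_PBS against WT_PBS, in ERRKO_CL against WT_CL, in WT_CL against WT_PBS and in the interaction.

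Without the replicates 3 of both ERRKO groups, the calls numbered 464 genes in ERRKO_CL against ERRKO_PBS and 215 in the interaction, with 5 mitochondrial members lower in ERRKO_PBS, 0 mitochondrial and 0 cytosolic members higher in ERRKO_CL against ERRKO_PBS, and 1 mitochondrial member lower in the interaction. Fitting only the groups compared gave 5 mitochondrial members lower in ERRKO_PBS. In ERRKO_CL against ERRKO_PBS, 2 mitochondrial members were higher with no low-value filter or with DESeq2, and 1 cytosolic member was higher under quantile normalization, no variance trend, only the groups compared, edgeR or the replicate block. On recovered reads edgeR called 4305 genes in ERRKO_PBS against WT_PBS, 5083 in ERRKO_CL against WT_CL, 3633 in WT_CL against WT_PBS, 1218 in ERRKO_CL against ERRKO_PBS and 412 in the interaction. DESeq2 called 823 genes and 7 mitochondrial members lower for the interaction. The replicate block changed 2 member calls: Lars2 in the interaction (adjusted p = 0.0554) and Sars in ERRKO_CL against ERRKO_PBS (0.0566) missed the threshold. Same-numbered libraries had correlations of deviations from -0.39 to 0.45, of which 7 of 18 were over 0.1, and 7 of 12 libraries correlated best with their own number. The cause of these shifts was not tested.

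Leaving out 1 library at a time gave 5 to 9 mitochondrial members lower in ERRKO_PBS against WT_PBS, 1 to 2 cytosolic members higher in WT_CL against WT_PBS, and a mitochondrial minus cytosolic median of 0.59 to 0.75 there and 0.14 to 0.28 in ERRKO_CL against ERRKO_PBS. That last comparison called 529 to 1641 genes, 0 to 2 mitochondrial and 0 to 2 cytosolic members higher, and the interaction 225 to 822 genes and 2 to 7 mitochondrial members lower. The 13 mitochondrial calls in ERRKO_CL against WT_CL and in WT_CL against WT_PBS became 12 at the lowest. Depth limits the 4 lowest mitochondrial genes most.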

Other observations

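Tarsl2, a paralog of the threonyl-tRNA synthetase gene Tars, is measured but lies outside the 36 listed genes. It had 5.07, 5.84 and 5.29 scaled RPKM in ERRKO_CL and 4.27, 3.35 and 5.84 in ERRKO_PBS, against 13.8, 16.1 and 14.8 in WT_CL and 12.3, 13.2 and 11.8 in WT_PBS libraries. Its log2 changes (ERRKO against WT) of -1.38 ± 0.15 with and -1.41 ± 0.15 without the agonist were called lower (± SE, limma adjusted p = 1.38e-05 and 1.66e-05), also on the deposited scale (-0.70 and -0.86), while Tars itself changed by -0.14 and -0.14 and did not pass, and was called higher on the deposited scale (0.55 and 0.44).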
